A study of Mus musculus with 5 samples.

Results

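The 10 endothelial genes described here are Kdr, Flt1, Tek, Tie1, Pecam1, Cldn5, Esam, Plvap, Emcn and Eng, markers of the blood vessels of the forebrain. They were taken by symbol from a table of raw counts with 27919 named rows, and each symbol matched a single row. Polyadenylated RNA was sequenced from whole mouse forebrain at E12.5 of development, in 3 EedcKO libraries and 2 wild-type libraries. All carried the C57BL/6 strain label and were untreated, and the submitters describe them as littermates. EedcKO is taken here as a conditional knockout of Eed from its name alone, as the titles read cKO. The product of Eed is part of the Polycomb complex that trimethylates histone H3 at lysine 27. No source used here gives the Cre or other means of knockout, or says whether endothelial cells were among the cells targeted. Nothing states that the libraries came from different embryos. Xist and Y-linked counts, given below, set EedcKO 1 (female) apart from EedcKO 2 and 3 (male). Libraries of the same group and sex could share an embryo, so the p-values rest on a spread between libraries that may be partly technical.

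Blood vessels enter the forebrain from a plexus on its surface, drawn by vascular endothelial growth factor (VEGF) from the neural wall, and grow through it by sprouting. Their endothelial cells carry receptors for VEGF and for angiopoietins, junction proteins that seal the vessel, and a co-receptor for bone morphogenetic proteins. In the brain they also acquire the blood-brain barrier, under WNT ligands from neural progenitors. Endothelial cells arise from mesoderm outside the neural tube, so their transcripts in whole forebrain report on a small non-neural population. In such bulk tissue, fewer endothelial cells and less RNA per cell cannot be told apart.

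Total counts ranged from 4820630 to 5026381 per library. Eed, the targeted gene, had 251, 233 and 247 counts in EedcKO 1, 2 and 3, against 404 counts in wild type 1 and 238 counts in the library labelled wild type 2. For Eed, the library labelled wild type 2 thus stood at the EedcKO level and went against its label. For Nrp2 and Nr2f2 the library labelled wild type 2 stood near wild type 1. Both genes are called below with the labels as given, so this likeness follows from their choice and is no check of the label. Whether its label is wrong was not tested. Over all 5 libraries the log2 fold change of Eed was -0.40 (DESeq2 adjusted p = 0.546). It was -0.75 without the library labelled wild type 2 and 0.04 without wild type 1. The first of these follows from leaving out a library singled out by its Eed count, so it is no test of the knockout. The 10 endothelial genes and the further lists were also tested without the library labelled wild type 2. Its red cell markers summed to 659.7 CPM (counts scaled to library size, with TMM factors), its choroid plexus markers to 645 CPM and its striated muscle markers to 87.0 CPM. In the other 4 libraries these sums were 257 to 443 CPM, 35.5 to 235 CPM and 10.96 to 20.3 CPM. Xist and Y-linked counts marked EedcKO 2 and 3 as male and the other 3 libraries as female, so no wild-type library was male.

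For promoter sequence, 7 of the 10 genes had an entry in RefSeq's promoter windows of the GRCm38.p6 assembly, which run from 250 bases before the annotated start to 50 bases after it. ETS factors are known regulators of endothelial genes, and the letters AGGAAG, a form of the sequence that they bind, were searched on both strands. They occurred in 4 of the 7 windows, with 2 matches in each, whereas 35.4% of all 32851 windows held at least 1 match and 8.62% at least 2. The 4 windows that hold a match are shown, with that of Kdr beside them as a member's window without AGGAAG. Other forms of the ETS sequence were not searched, and a window without AGGAAG may hold them. Matches are in capitals, 5′ to 3′ on the gene's strand, and a match on the opposite strand reads CTTCCT. The windows are chr2:32646345-32646644 (plus strand) for Eng, chr4:118489800-118490099 (minus) for Tie1, chr5:147725962-147726261 (minus) for Flt1, chr3:137340828-137341127 (plus) for Emcn and chr5:75978406-75978705 (minus) for Kdr.
Eng: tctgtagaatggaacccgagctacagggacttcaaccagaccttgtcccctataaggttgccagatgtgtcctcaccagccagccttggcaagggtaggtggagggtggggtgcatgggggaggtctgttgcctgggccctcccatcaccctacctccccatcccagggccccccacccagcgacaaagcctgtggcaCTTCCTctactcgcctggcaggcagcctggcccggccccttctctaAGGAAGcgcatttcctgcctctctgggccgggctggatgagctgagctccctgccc
Tie1: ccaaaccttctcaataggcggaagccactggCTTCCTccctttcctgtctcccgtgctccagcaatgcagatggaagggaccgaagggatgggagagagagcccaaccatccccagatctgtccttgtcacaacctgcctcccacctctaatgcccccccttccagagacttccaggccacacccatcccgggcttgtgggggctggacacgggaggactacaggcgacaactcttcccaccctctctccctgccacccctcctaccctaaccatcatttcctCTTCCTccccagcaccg
Flt1: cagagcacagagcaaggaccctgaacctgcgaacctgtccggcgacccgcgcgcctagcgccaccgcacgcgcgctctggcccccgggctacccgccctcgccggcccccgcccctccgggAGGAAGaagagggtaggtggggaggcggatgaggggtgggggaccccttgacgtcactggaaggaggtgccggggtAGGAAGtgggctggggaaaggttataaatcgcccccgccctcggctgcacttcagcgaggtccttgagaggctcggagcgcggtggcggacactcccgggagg
Emcn: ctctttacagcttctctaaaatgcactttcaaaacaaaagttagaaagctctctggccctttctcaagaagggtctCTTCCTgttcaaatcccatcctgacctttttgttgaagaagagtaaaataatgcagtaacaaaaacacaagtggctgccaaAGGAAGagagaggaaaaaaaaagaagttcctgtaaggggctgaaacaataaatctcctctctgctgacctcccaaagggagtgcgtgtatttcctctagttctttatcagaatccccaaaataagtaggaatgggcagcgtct
Kdr: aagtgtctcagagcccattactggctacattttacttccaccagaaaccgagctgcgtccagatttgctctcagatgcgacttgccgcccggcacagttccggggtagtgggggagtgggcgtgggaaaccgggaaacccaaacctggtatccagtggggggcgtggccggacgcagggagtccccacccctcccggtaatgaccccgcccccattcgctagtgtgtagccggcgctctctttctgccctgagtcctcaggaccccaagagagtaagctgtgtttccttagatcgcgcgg
The windows of Tek and Cldn5 held no AGGAAG either. The SOX core ACAAAG occurred in the Tek and Eng windows (18.7% of all windows), the GATA core AGATAA in the Tek window (11.2% of all windows) and the FOX letters TGTTTAC in none of the 7 (3.65% of all windows). A match is a description of these letters and was not tested as a binding site.

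None of the 10 endothelial genes passed the test between EedcKO and wild-type forebrain, and the groups overlapped for every one of them. Log2 fold changes, EedcKO over wild type, ran from -0.13 for Cldn5 to 0.28 for Flt1, with 6 genes above 0 and 4 below. Their median was 0.11, against 0.01 over all 13989 genes tested. The test was edgeR's quasi-likelihood test with Benjamini-Hochberg adjustment over all genes tested and a threshold of 0.05, and 3.2% of all tested genes passed it (145 genes or 1.04% higher, 303 genes or 2.17% lower). The members' edgeR adjusted p lay between 0.653 and 0.979, none had an unadjusted p under 0.05 (17.2% of all tested genes did), and DESeq2 and limma-voom also called 0. Groups that did not overlap were found for 33.8% of all tested genes and for 0 of the members. The 95% intervals of the fold, EedcKO over wild type, reached from 0.597 for Esam at the lowest to 2.02 for Tek at the highest. They differed in width, since Kdr spanned 0.844 to 1.38, whereas Tek spanned 0.680 to 2.02.

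**Figure D1:**
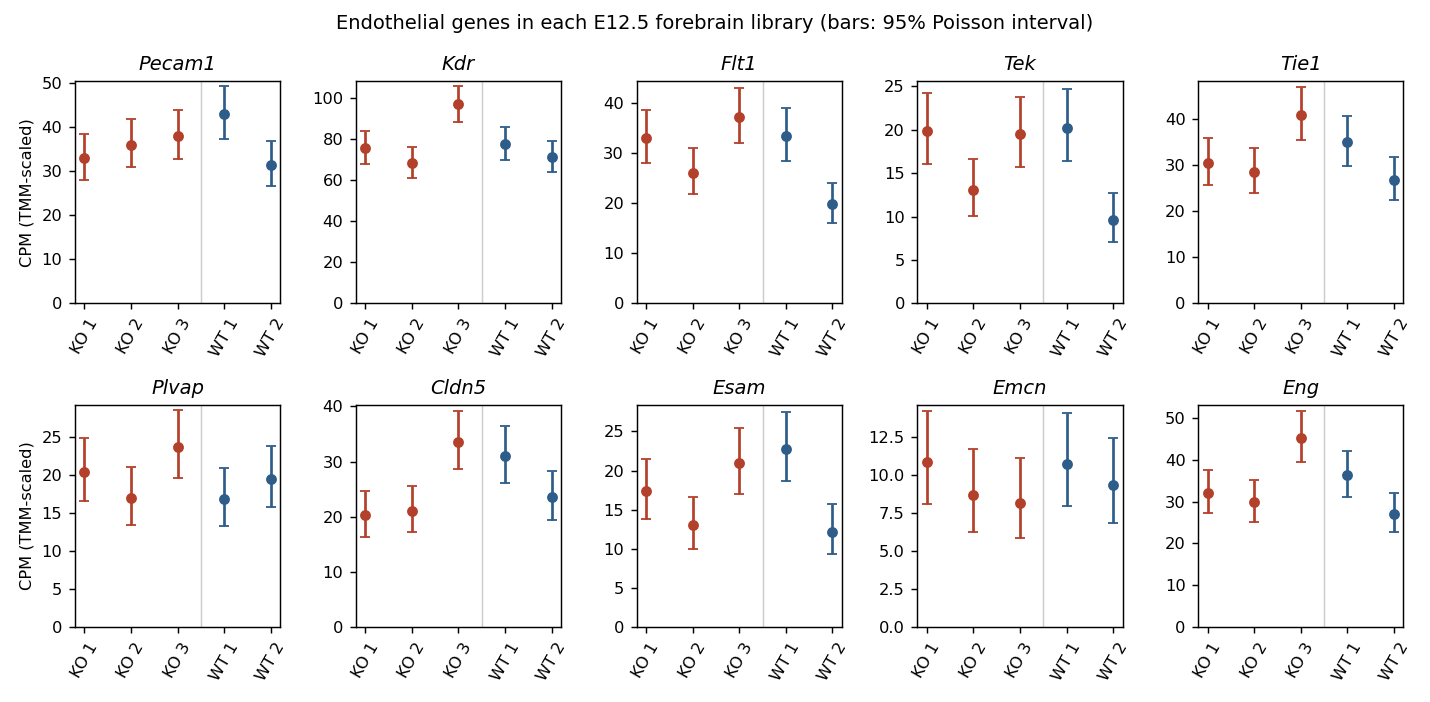
Level of each endothelial gene (y axis, CPM scaled by TMM) in each library (x axis; KO is EedcKO, WT is wild type), with bars for the 95% Poisson interval of the count. The groups overlap in every panel, and Flt1, Tek and Esam are lowest in the library labelled wild type 2.

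Kdr encodes VEGF receptor 2, the main signalling receptor for VEGF in sprouting vessels. It lies on chromosome 5 (75932827 to 75978458, minus strand, mm10) and had the highest counts of the 10 genes. It stood at 75.6, 68.5 and 97.0 CPM in EedcKO 1, 2 and 3, against 77.6 CPM in wild type 1 and 71.4 CPM in the library labelled wild type 2. EedcKO 3 was the highest library and EedcKO 2 the lowest, so the EedcKO libraries spanned both wild-type values. The log2 fold change was 0.11 (SE 0.15, edgeR adjusted p = 0.788). Flt1 encodes VEGF receptor 1, which binds VEGF tightly and, partly as a soluble form, limits what reaches Kdr. It lies on the same chromosome (147561604 to 147726011, minus strand) and stood at 33.0, 26.1 and 37.1 CPM in EedcKO 1, 2 and 3, against 33.3 CPM in wild type 1 and 19.7 CPM in the library labelled wild type 2. The last value lay below all others, and the 95% Poisson interval of its 97 counts (78.7 to 118) did not reach that of the 158 counts of wild type 1 (134 to 185). The value between groups, 0.28 on the log2 scale (SE 0.25, edgeR adjusted p = 0.653), became -0.05 without the library labelled wild type 2 (edgeR adjusted p = 0.939). Without wild type 1 it was 0.68 (edgeR adjusted p = 0.110). The direction for Flt1 depended on which wild-type library was kept. The ratio of Kdr to Flt1 in TPM (counts per length scaled to the library, a level that can be compared between genes) was 3.43 to 3.93 in EedcKO, against a ratio of 3.48 in wild type 1 and 5.41 for the library labelled wild type 2.

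Tek (Tie2) is the receptor for angiopoietins, which stabilise or loosen vessels, and Tie1 is its partner without a firmly bound ligand of its own. Tek (chromosome 4, 94739289 to 94874976, plus strand) had 95, 63 and 95 counts in EedcKO 1, 2 and 3, against 96 counts in wild type 1 and 47 counts in the library labelled wild type 2. In CPM these were 19.8, 13.03 and 19.5 in EedcKO, against 20.2 and 9.56 in wild type. The gap between the wild-type libraries, 1.08 on the log2 scale, was the widest of the 10 genes and exceeded the 0.23 between groups (log2 fold change, SE 0.34, edgeR adjusted p = 0.801). Without the library labelled wild type 2 the log2 fold change was -0.21 (edgeR adjusted p = 0.745), and without wild type 1 it was 0.85 (edgeR adjusted p = 0.134). Tie1 (chromosome 4, 118471191 to 118490061, minus strand) varied less. It stood at 30.5, 28.6 and 41.0 CPM in EedcKO 1, 2 and 3, against 34.99 CPM in wild type 1 and 26.8 CPM in the library labelled wild type 2 (log2 fold change 0.11, SE 0.20, edgeR adjusted p = 0.844). Only in EedcKO 3 did it exceed wild type 1. GENCODE M21 starts Tie1 at 118490061, upstream of the RefSeq start used for its promoter window, so most of that window lies inside the GENCODE gene.

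Pecam1, Cldn5 and Esam encode proteins of endothelial cell contacts. Pecam1 (CD31, chromosome 11, 106654217 to 106750628, minus strand) is the standard stain for vessels. It stood at 33.0, 36.0 and 37.9 CPM in EedcKO 1, 2 and 3, against 43.0 CPM in wild type 1 and 31.5 CPM in the library labelled wild type 2. The EedcKO libraries all lay between the wild-type pair, and the log2 fold change was -0.06 (SE 0.16, edgeR adjusted p = 0.897). Cldn5, the main tight junction claudin of the blood-brain barrier (chromosome 16, 18776847 to 18778262, plus strand), stood at 20.3, 21.1 and 33.6 CPM in EedcKO 1, 2 and 3, against 31.0 CPM in wild type 1 and 23.6 CPM in the library labelled wild type 2. EedcKO 1 and 2 were below both wild-type values and EedcKO 3 above both. This spread within EedcKO, 0.73 on the log2 scale, was the widest of the 10 genes in that group, beside -0.13 between groups (log2 fold change, SE 0.25, edgeR adjusted p = 0.864). Esam, an immunoglobulin-type adhesion molecule of endothelial cells and platelets (chromosome 9, 37528078 to 37538319, plus strand), stood at 17.3, 13.03 and 20.9 CPM in EedcKO 1, 2 and 3, against 22.8 CPM in wild type 1 and 12.2 CPM in the library labelled wild type 2. Its log2 fold change was -0.03 (SE 0.31, edgeR adjusted p = 0.979), with -0.41 when the library labelled wild type 2 was left out and 0.47 when wild type 1 was.

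Plvap, Emcn and Eng mark states and parts of the vessel bed. Plvap encodes the diaphragm protein of fenestrated and immature vessels and is lost from brain vessels as the barrier matures (chromosome 8, 71497765 to 71511752, minus strand). It stood at 20.5, 17.0 and 23.8 CPM in EedcKO 1, 2 and 3, against 16.9 CPM in wild type 1 and 19.5 CPM in the library labelled wild type 2. It was the single member higher in the library labelled wild type 2 than in wild type 1, and the log2 fold change was 0.17 (SE 0.19, edgeR adjusted p = 0.747). Emcn encodes endomucin, a sialomucin of venous and capillary endothelium (chromosome 3, 137341067 to 137432185, plus strand). It had the lowest counts, at 52, 42 and 40 in EedcKO 1, 2 and 3, against 51 counts in wild type 1 and 46 counts in the library labelled wild type 2. The chi-square of its counts over the 5 libraries was 0.724 per degree of freedom, at or below the spread of counting error alone, while the median of tested genes was 2.999. The log2 fold change was -0.12 (SE 0.24, edgeR adjusted p = 0.868). Eng encodes endoglin, the co-receptor through which bone morphogenetic proteins signal in endothelium (chromosome 2, 32646595 to 32682669, plus strand). It stood at 32.2, 29.8 and 45.3 CPM in EedcKO 1, 2 and 3, against 36.3 CPM in wild type 1 and 27.0 CPM in the library labelled wild type 2 (log2 fold change 0.18, SE 0.22, edgeR adjusted p = 0.758). Its annotated exons share 61 bases with Fpgs on the opposite strand, and reads there cannot be assigned if counting ignored strand. No other member shares exonic bases with another GENCODE gene.

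**Figure D2:**
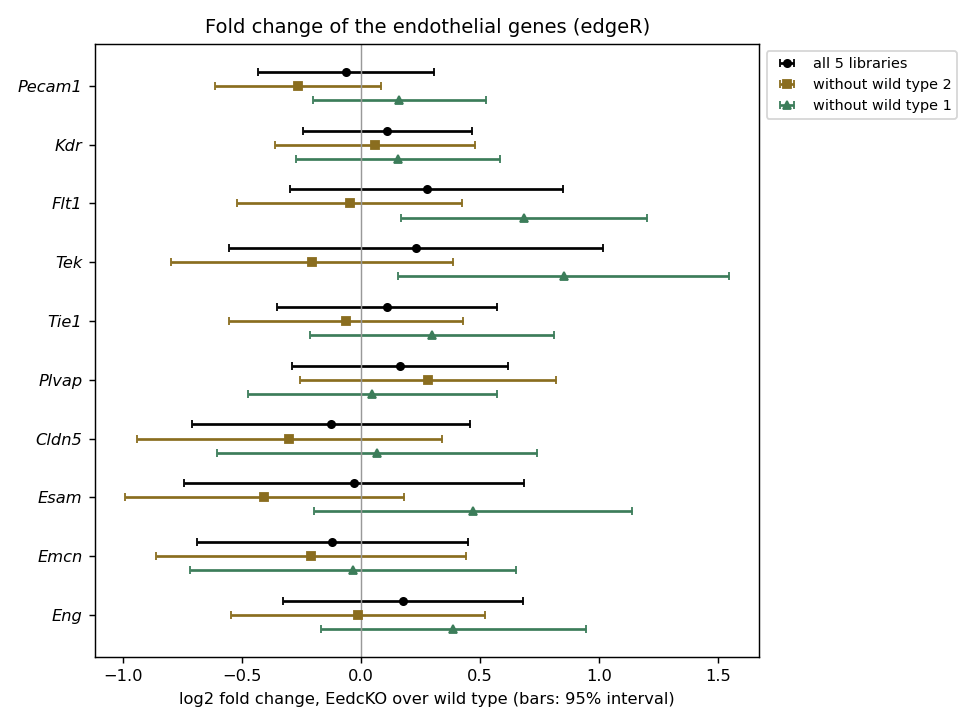
Log2 fold change (x axis, EedcKO over wild type, edgeR) of each endothelial gene with its 95% interval, over all 5 libraries and without either wild-type library. All intervals over 5 libraries include 0, and without wild type 1 the intervals of Flt1 and Tek (unadjusted) lie above it while neither passes after adjustment.

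Read against the spread inside each group, the differences between groups were small. In all 10 genes the log2 gap between the wild-type libraries, in CPM with TMM factors, exceeded the size of the log2 fold change between groups. For Kdr the margin was narrow (0.12 against 0.11). The log2 range of the EedcKO libraries also exceeded the fold change in all 10 genes. Where groups overlap such an excess is likely, so it only describes the members. Wild type 1 was above the library labelled wild type 2 in 9 of 10 genes, and for 4 of them (Pecam1, Flt1, Tek and Esam) the 95% Poisson intervals of these libraries did not meet. These counts were made for the 10 members alone, and the shares over all tested genes were not computed. Without the library labelled wild type 2, 2 genes were above 0 and 8 below, with a median log2 fold change of -0.13 and edgeR adjusted p of 0.403 to 0.987. Without wild type 1, 9 were above and 1 below, with a median of 0.23 and edgeR adjusted p of 0.110 to 0.965, and Flt1 and Tek had an unadjusted p under 0.05. No member passed in either fit, while 882 and 1012 genes of the whole table did.

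For most members the same libraries were high and low. Summed over the 10 genes, the level was 293, 262 and 364 CPM in EedcKO 1, 2 and 3, against 327 CPM in wild type 1 and 250.7 CPM in the library labelled wild type 2. The means were 306 ± 52.6 CPM in EedcKO (SD, n = 3) and 289 ± 53.8 CPM in wild type (SD, n = 2), and the highest sum was 1.45 times the lowest. The log2 ratio of these means was 0.09, and it was -0.09 without the library labelled wild type 2, -0.06 without EedcKO 3 and 0.29 without wild type 1. In TPM the lowest sum was that of EedcKO 2 (293.9), beside 295 in the library labelled wild type 2. EedcKO 3 was the highest library for 6 genes and the library labelled wild type 2 the lowest for 6, and EedcKO 2 was among the lowest pair for 9. Tie1 followed the sum most closely, with a root mean square difference of 0.04 between the mean-centred log2 levels over the 5 libraries, then Eng (0.07) and Kdr (0.08). Tek (0.27) and Emcn (0.26) departed most. Kdr supplied 23.7% to 28.5% of the members' counts in a library and Emcn 2.25% to 3.73%.

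**Figure D3:**
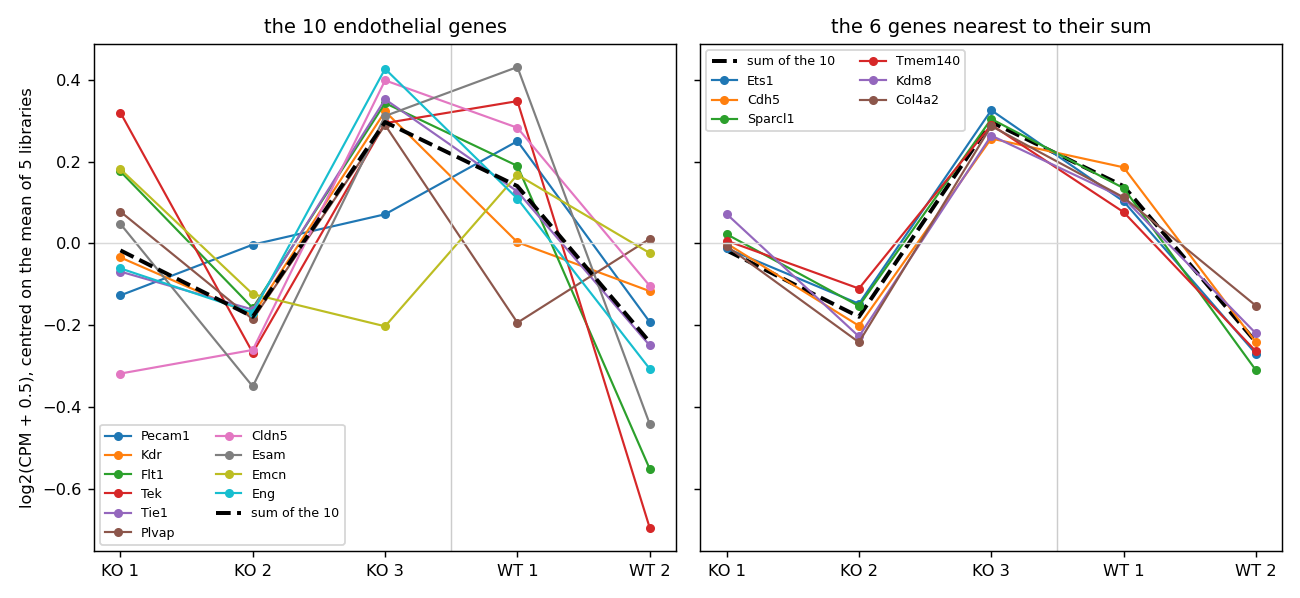
Mean-centred log2(CPM + 0.5) by library (KO is EedcKO, WT is wild type) for the 10 endothelial genes on the left and for the 6 genes nearest to their sum on the right; the dashed line is the summed level. EedcKO 3 is the peak of the sum and the library labelled wild type 2 its lowest point, and Tek and Emcn depart most from it.

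Among 11298 other tested genes with a mean of at least 10 CPM, the 6 whose profile lay nearest to that of the sum were Ets1, Cdh5, Sparcl1, Tmem140, Kdm8 and Col4a2, with differences of 0.029 to 0.051. Ets1 is an ETS transcription factor active in endothelium, Cdh5 encodes VE-cadherin, the endothelial cadherin, and Col4a2 encodes a chain of the collagen of basement membranes. Cdh5 stood at 43.8, 38.1 and 52.5 CPM in EedcKO 1, 2 and 3, against 49.96 CPM in wild type 1 and 37.0 CPM in the library labelled wild type 2. Ets1 stood at 48.2, 43.9 and 61.1 CPM in EedcKO 1, 2 and 3, against 52.3 CPM in wild type 1 and 40.3 CPM in the library labelled wild type 2. Each thus repeated the order of libraries of the members' sum, the likeness by which both were chosen. Both belong to the 25 further pan-endothelial genes described below, whose sum was ordered otherwise. That sum was 595, 541 and 694 CPM in EedcKO 1, 2 and 3. It was 555 CPM in wild type 1 and 615 CPM in the library labelled wild type 2. With 5 libraries the likeness of the 6 profiles is a description.

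Levels between genes were compared in the deposited TPM, which divides counts by length. Cldn5 was the most abundant, at 85.3 ± 24.9 TPM in EedcKO and 92.6 ± 17.1 TPM in wild type (SD, n = 3 and 2), and it was above the next gene in all 5 libraries. Plvap (47.4 TPM over the 5 libraries), Kdr (41.7) and Eng (40.7) came next, with ranges that overlapped. Tie1 (31.8), Esam (29.0) and Pecam1 (28.1) followed and overlapped too. Tek (16.8 TPM) was below Pecam1 in all 5 libraries without overlap of their ranges, and Flt1 (10.7) and Emcn (8.54) closed the order with overlapping ranges. The lengths behind the TPM were those of all annotated exons of a gene joined together, as the counts per TPM of the 10 genes were proportional to the joined exon lengths of GENCODE M21. That length was 13504 bases for Flt1, whose longest transcript has 6895, and 6228 for Pecam1 against 3441. With CPM per kilobase of the longest transcript, a measure added after the values were seen, Cldn5 stayed first (18.3) and Emcn last (2.72). Kdr (13.2) and Pecam1 (10.55) then came next, Plvap (9.82) took rank 5, and Flt1 (4.33) stood above Tek (3.53).

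**Figure D4:**
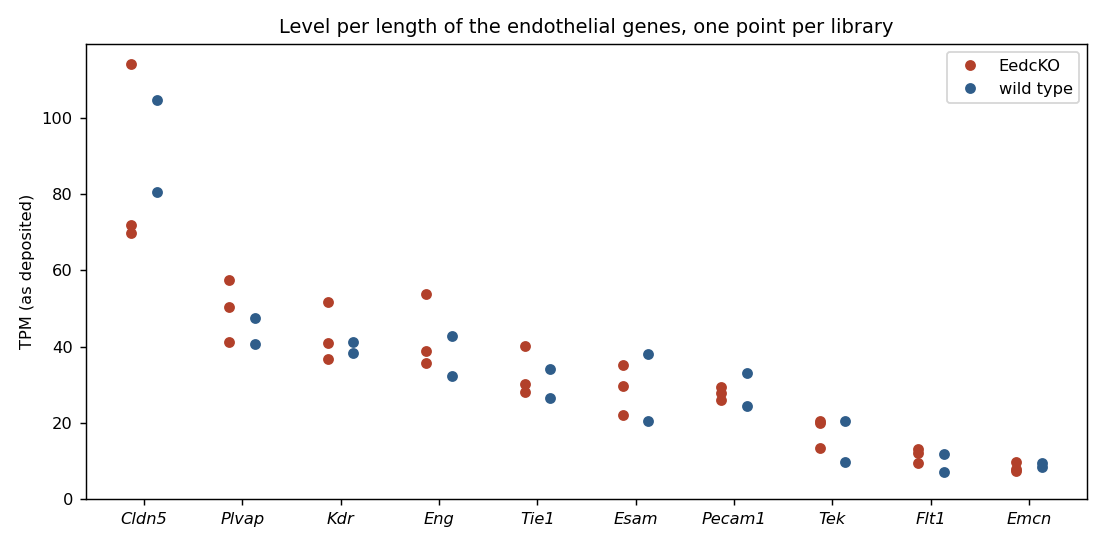
Deposited TPM (y axis) of the 10 endothelial genes, ordered by their mean over the 5 libraries, with 1 point per library and the EedcKO points left of the wild-type points. Cldn5 lies above Plvap in every library, and Emcn and Flt1 are lowest.

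Of 25 further pan-endothelial genes, all tested, 0 passed with edgeR (4 had an unadjusted p under 0.05) and 0 with DESeq2 or limma-voom, with a list median of 0.12 on the log2 scale. Over all tested genes 3.2% passed with edgeR and 17.2% had an unadjusted p under 0.05. The groups did not overlap for 6 of the 25 genes and for 33.8% of all tested genes. The pair with the smallest p were S1pr1, a sphingosine phosphate receptor of vessels, and Mcam, an adhesion molecule of endothelium and pericytes. S1pr1 stood at 46.6, 55.2 and 53.9 CPM in EedcKO 1, 2 and 3, against 39.4 and 41.7 CPM in wild type (log2 fold change 0.36, SE 0.12, edgeR adjusted p = 0.173). Mcam stood at 57.0, 64.8 and 71.1 CPM in EedcKO 1, 2 and 3, against 48.3 and 52.2 CPM in wild type (0.36 on the log2 scale, edgeR adjusted p = 0.183). For both genes the EedcKO libraries all lay above the wild-type pair without passing the threshold, and without the library labelled wild type 2 the values were 0.40 for S1pr1 and 0.42 for Mcam, not passed either. Calls in this list appeared when a wild-type library was left out, and these genes are named after their values were seen. Without wild type 1, Lmo2 (-1.21) and Tal1 (-1.64) passed as lower, and without the library labelled wild type 2, Lyl1 (1.15) passed as higher. Tal1 and Lyl1 encode transcription factors of endothelial and blood-forming cells, and Lmo2 a cofactor that acts with them. Tal1 stood at 16.9, 10.8 and 9.64 CPM in EedcKO 1, 2 and 3, against 9.91 CPM in wild type 1 and 38.2 CPM in the library labelled wild type 2, the library with the highest red cell sum. The part of red cells in these 3 genes was not tested.

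Of 10 tested VEGF and angiopoietin ligands and co-receptors, 1 fell and none rose (list median 0.11). Nrp2, a co-receptor for VEGF-C and semaphorins that neurons of the forebrain also carry, stood at 172, 150 and 188 CPM in EedcKO 1, 2 and 3, against 317 CPM in wild type 1 and 265 CPM in the library labelled wild type 2. The groups did not overlap (log2 fold change -0.77, SE 0.12, edgeR adjusted p = 0.0240), and without the library labelled wild type 2 the value was -0.89 (edgeR adjusted p = 0.00401). The ligand Vegfa, at 111, 95.8 and 94.3 CPM in EedcKO 1, 2 and 3 against 107 and 83.4 CPM in wild type, did not pass (0.08, edgeR adjusted p = 0.826). Of 10 tested arterial, venous and lymphatic genes, 1 rose and 2 fell, where 1.04% of all tested genes rose and 2.17% fell. Nr2f2, a venous transcription factor that also acts in ventral forebrain neurons, fell to 79.1, 101 and 58.2 CPM in EedcKO 1, 2 and 3, against 262 and 245 CPM in wild type (-1.67, SE 0.20, edgeR adjusted p = 0.0112). Prox1, the lymphatic master regulator, also expressed by neural progenitors and neurons, fell (-1.14, SE 0.23, edgeR adjusted p = 0.0495). The arterial ligand Efnb2, also carried by neural progenitors, rose (0.52, SE 0.11, edgeR adjusted p = 0.0479). In whole forebrain the cell source of these 4 transcripts was not tested. All 4 calls were lost without EedcKO 3 (edgeR adjusted p of 0.0781 to 0.200), with a replicate block (0.0530 to 0.216) and with embryo sex as a covariate (0.210 to 0.355). Without EedcKO 1 the calls of Nrp2 (0.0656) and Efnb2 (0.0843) were lost, and without EedcKO 2 those of Nrp2 (0.0974), Efnb2 (0.167) and Prox1 (0.167), all as edgeR adjusted p. Without wild type 1 that of Prox1 was lost (edgeR adjusted p = 0.0889). Prox1 was also lost with no count filter (0.0793) and in both limma-trend fits on log2 TPM (0.0707 and 0.0735), and Efnb2 with at least 1 CPM in 2 libraries (0.0507). Over the 16 alternatives Nr2f2 passed in 13, Nrp2 in 11, Efnb2 in 10 and Prox1 in 8. Without the library labelled wild type 2, Nr2f2 (-1.71), Prox1 (-1.34) and Efnb2 (0.44) still passed.

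**Figure D5:**
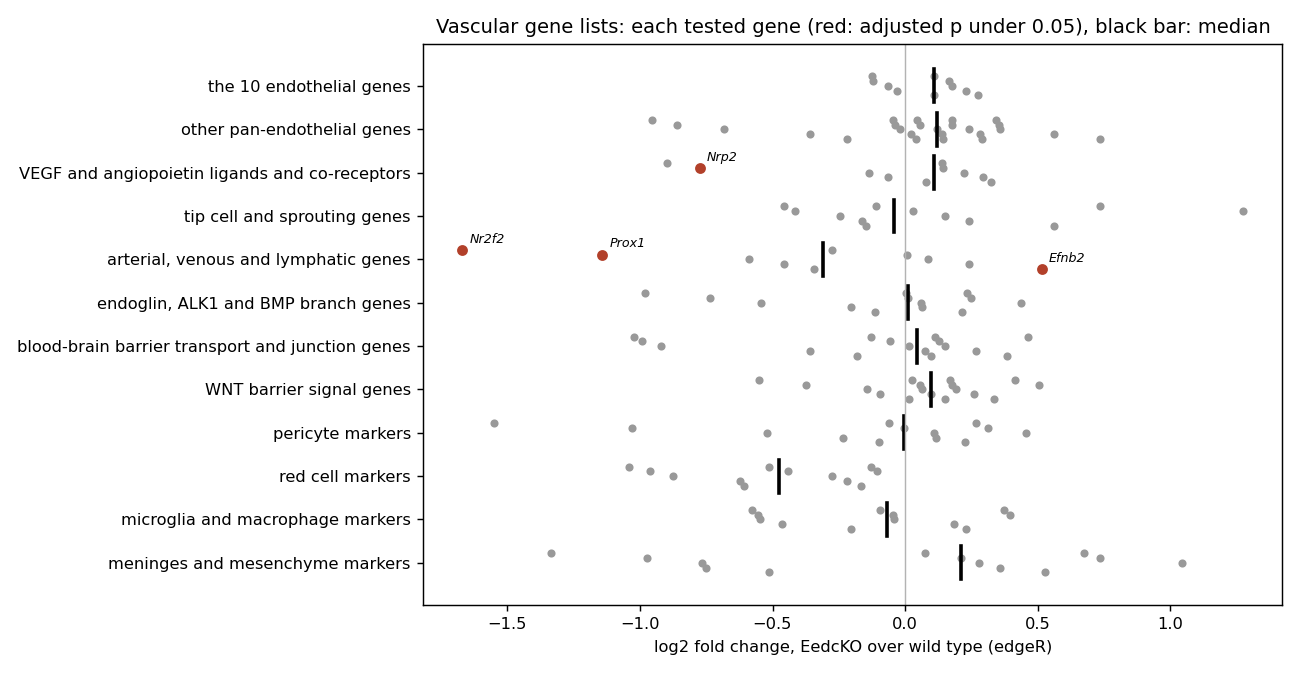
Log2 fold change (x axis, EedcKO over wild type, edgeR) of each tested gene in lists of vascular genes and of neighbouring cell types, with red points for adjusted p under 0.05 and black bars for list medians. Red points are confined to Nrp2, Nr2f2, Prox1 and Efnb2 among the lists drawn.

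No gene passed among 12 tested tip cell and sprouting genes, where 3 had an unadjusted p under 0.05 (among them Unc5b -0.46 and Hey1 0.74). The same held for 13 tested genes of the endoglin, ALK1 and BMP branch, where Smad5 (0.23) had an unadjusted p under 0.05 and Id1 (-0.74) the next smallest p. Among 16 tested barrier transport and junction genes 0 passed and 5 had an unadjusted p under 0.05 (Slc16a1 0.46), and among 17 WNT barrier genes 0 passed and 2 did so (Fzd4 0.42, Lrp5 0.26). These values are log2 fold changes in edgeR, where 3.2% of all tested genes passed and 17.2% had an unadjusted p under 0.05. Genes of these lists that stood out when a wild-type library was left out are named after their values were seen. Without the library labelled wild type 2, log2 fold changes were 1.07 for Hey1, 1.21 for Hey2, 1.33 for Smad6 and 0.71 for Slc16a1. They were 1.09 for Lef1, 1.07 for Tnfrsf19 and -0.58 for Unc5b. Without wild type 1, Hey2, Ocln, Slco1a4 and Axin2 were lower and Lrp6 was higher. Over the 16 alternatives Hey2 ran from -0.84 to 1.21, Lef1 from -0.17 to 1.09 and Smad6 from -0.12 to 1.33. Hey1, Slc16a1, Tnfrsf19 and Unc5b kept their direction. In these 4 lists limma-voom called 0 and DESeq2 called Hey1, a Notch target, as its single gene. The barrier transport and junction genes summed to 1069 to 1149 CPM in EedcKO, against 994 and 1036 CPM in wild type. In TPM the same sums overlapped, at 1081 to 1187 in EedcKO, against 994 TPM in wild type 1 and 1094 TPM in the library labelled wild type 2. Slc2a1, the glucose transporter of barrier vessels, stood at 106, 110 and 139 CPM in EedcKO 1, 2 and 3, against 102 CPM in wild type 1 and 123 CPM in the library labelled wild type 2. Of 11 tested hypoxia genes 1 rose, the stress-responsive Ndrg1 (1.26, edgeR adjusted p = 0.0472), a call kept in 7 of 16 alternatives. Its edgeR adjusted p was 0.207 without EedcKO 3, 0.124 without EedcKO 2, 0.0837 without wild type 1, 0.0943 with a replicate block and 0.314 with embryo sex, where the log2 fold change was 0.75. Limma-voom gave an adjusted p of 0.0894.

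Pericytes wrap capillaries and steady them. Their 15 markers summed to 349 to 399 CPM in EedcKO, against 362 CPM in wild type 1 and 328 CPM in the library labelled wild type 2, and 0 of 13 tested passed (Notch3 0.31, Acta2 -1.55). Over the 16 alternatives the pericyte marker Rgs5 ran from -0.31 to 0.69 and Tagln from -1.05 to 0.30. Both are named after their values were seen. In EedcKO 1 and EedcKO 3, 1 pericyte marker was at 0 counts. In TPM the pericyte sum was 326 to 368 in EedcKO, against 330.2 TPM in wild type 1 and 378 TPM in the library labelled wild type 2, so the order of libraries depended on the unit. Microglia and macrophage markers summed to 102 to 129 CPM in EedcKO, against 96.3 and 142 CPM in wild type, and 0 of 12 tested passed (C1qc -0.55, Cd68 0.39). Meningeal and mesenchymal markers summed to 637 to 1184 CPM in EedcKO, against 745 and 949 CPM in wild type, and 0 of 13 tested passed (Zic1 -0.75, Prrx1 0.73, both called by DESeq2). Every microglial, meningeal and red cell marker in the table had counts in all 5 libraries. Red cell markers had 0 of 12 tested past the threshold (Hbb-bt -0.61, Hbb-y -0.17), and early blood genes 0 of 4 (Spi1 -0.95, Kit 0.30). Choroid plexus (Otx2 -1.47, Kcne2 -3.16) and striated muscle markers (Tnnt1 -2.08, Actc1 -2.10) had 0 of 8 and 0 of 5 past the threshold. Up to 3 markers of each list were at 0 counts in an EedcKO library, and 2 muscle markers were at 0 in wild type 1. The muscle values rested on the library labelled wild type 2: without it Actc1 was 1.18 and Tnnt1 -1.12, neither past the threshold, and without wild type 1, 7 of the 10 listed muscle markers passed as lower. Acta2 was 0.90, Kcne2 -0.44 and Otx2 -1.08 without that library, and none passed. Of 10 neural forebrain markers 1 rose, where 1.04% of all tested genes rose. It was the progenitor factor Pax6 (0.65, edgeR adjusted p = 0.0286). Its call was lost when any EedcKO library was left out (edgeR adjusted p of 0.0712 to 0.156). The same held with a replicate block (0.134) and with embryo sex as a covariate (0.267). In these lists 6 meningeal genes and at most 1 gene of each other list had an unadjusted p under 0.05, against 17.2% of all tested genes. Without the library labelled wild type 2, Pax6 still passed (0.51), and of the genes named in this paragraph Prrx1 passed too (1.14). The part of these cell types in the endothelial levels was not tested.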

How the data were processed

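The submitters' processing notes name HISAT2 2.2.0 and the mm10 build. No source used here gives the counting tool, its strand setting or its annotation. The authors deposited raw counts per gene (56196 rows) and TPM (24926 rows). Samples were grouped by title.

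Rows without a symbol (28277, holding 2.01% to 2.16% of a library's counts) were left out. A symbol on several rows (407 symbols) was kept where a single row held 99% or more of its counts. The test used edgeR 4.0.16 under R 4.3.3 (filterByExpr, TMM, robust glmQLFit, glmQLFTest), with Benjamini-Hochberg adjustment over 13989 genes. The script was tested on simulated data. A standard error is the log2 fold change over the square root of F, and 95% intervals use the fit's t quantile and are not adjusted. Poisson intervals reflect counting error alone, and the labels name no molecular identifiers. In a library 3 counts equal 0.610 to 0.632 CPM.

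Coordinates come from GENCODE M21 (mm10), 1-based. The members and lists were chosen with earlier results of these data known. Named genes were the 10 members, up to 4 list genes past the threshold with the largest change (otherwise the 2 with the smallest p), the 6 nearest profiles, and others said to be named after their values; 1 gene under this rule is not reported here. Vegfa, Slc2a1 and Cdh5 were named after their values were seen, as well-known members of their lists. Alternatives were DESeq2 1.42.0, limma 3.58.1 (voom, and limma-trend on log2 of TPM plus 1 or 0.1), other scalings and filters, embryo sex, a replicate block and each library left out. The tables held 0 columns of other samples.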

Additional observations from a re-analysis of the deposited data

How the results depend on the processing

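No endothelial gene passed under any of 16 alternatives, and 141 of 160 values kept their direction; the smallest adjusted p was 0.110. Leaving out 1 library at a time gave log2 fold changes of -0.26 to 0.16 for Pecam1, -0.048 to 0.21 for Kdr, -0.048 to 0.68 for Flt1, -0.21 to 0.85 for Tek, -0.066 to 0.30 for Tie1, -0.40 to 0.069 for Cldn5, -0.41 to 0.47 for Esam, -0.030 to 0.39 for Eng, 0.040 to 0.28 for Plvap and -0.26 to -0.033 for Emcn. The turned signs came without EedcKO 3 (Kdr, Tie1, Eng), EedcKO 2 (Esam), wild type 1 (Pecam1, Cldn5, Esam) or the library labelled wild type 2 (Flt1, Tek, Tie1, Eng). With a replicate block the sign turned for Kdr (-0.048), Tie1 (-0.058) and Eng (-0.021), and with embryo sex as a covariate for Tie1 (-0.019) and Emcn (0.11). For Esam it turned with limma-voom (0.018), log2 of TPM plus 1 (0.017) and log2 of TPM plus 0.1 (0.019). The count over all genes, 448, was 675 with library size alone, 679 with DESeq2 and 290 with log2 of TPM plus 0.1. It was 0 with the replicate block (2169 genes at an unadjusted edgeR p under 0.05) and 0 with embryo sex (1611). It ranged from 0 (without EedcKO 3, where 1887 had an unadjusted edgeR p under 0.05) to 1012 (without wild type 1) when a library was left out, with 262 without EedcKO 1, 84 without EedcKO 2 and 882 without the library labelled wild type 2. The other pan-endothelial list, with 0 calls, ranged from 0 to 2. The replicate numbers share only a number: same-numbered libraries' deviations correlated at -0.035 and 0.130 across genes. Where a lone wild-type library remained, it was assumed to vary like EedcKO. The log2 ratio of the summed levels, 0.09, ranged from -0.093 to 0.29 when a library was left out. The cause of these shifts was not tested. Emcn had the lowest counts (40 to 52 a library), while the standard error was largest for Tek (0.34) and Esam (0.31). No group had the 4 libraries that a check for outlying samples needs.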
